A study of Homo sapiens with 16 samples.

Results

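The RAS-MAPK output and feedback genes are 10 genes chosen by name: NRAS, DUSP4, DUSP5, DUSP6, SPRY2, SPRY4, SPRED1, ETV4, ETV5 and PHLDA1. Each was found once among the 17552 genes that carry values in the deposited expression table, so 10 of 17552 genes are described here. They were followed in HT-1080, an established human fibrosarcoma cell line known to carry an activated NRAS allele. RNA was measured in 16 libraries, 2 for each of 8 groups, in FPKM (fragments scaled by transcript length and by library), a unit that allows levels to be compared between genes. The groups are oeWDR76/Erastin and oeWDR76 (overexpressed WDR76), siDCAF8+siLSH/Erastin and siDCAF8+siLSH (both transcripts targeted by siRNA), siDCAF8/Erastin and siDCAF8, and siNS/Erastin and siNS (non-silencing siRNA). The protocol text of every library gives erastin at 10 µM for 24 h, and groups with erastin in their name were taken as the treated ones. Erastin blocks cystine uptake through system xc- and is used to start ferroptosis, an iron-dependent cell death. All 8 groups are the same cell line, no vector control stands beside oeWDR76, and whether its 2 libraries are separate cultures is not given for any group, so p-values measure the spread between these libraries only.

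RAS proteins are membrane switches that pass signals from receptor tyrosine kinases through RAF and MEK kinases to ERK. ERK raises the transcription of several genes whose products then restrain the pathway. DUSP4, DUSP5 and DUSP6 are phosphatases that remove the activating phosphates from ERK. SPRY2, SPRY4 and SPRED1 act further up, near RAS and RAF. ETV4 and ETV5 are ETS-family transcription factors, and PHLDA1 is a small pleckstrin-homology protein, all with transcripts that ERK activity is known to raise. In tumour cells, transcripts of this set are often summed as a readout of pathway output.

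ETS-family factors bind DNA around a GGAA core, so the promoters were searched on both strands for CCGGAA, a longer string that holds it. The shorter GGAA was neither counted nor marked, and it also occurs elsewhere in these windows. RefSeq promoter sequence (GRCh38.p14) was matched for 6 of the 10 genes (NRAS, DUSP6, SPRY2, SPRY4, SPRED1 and PHLDA1) and the 250 bases before the start were read. SPRY2 and PHLDA1 are printed because their windows hold CCGGAA, in capitals, and because their transcripts moved in opposite directions in oeWDR76/Erastin against siNS/Erastin cells. The SPRY2 window is chr13:80341127-80341376 on the minus strand, the nearest to the deposited gene start of 3 listed. The PHLDA1 window is chr12:76031777-76032026 on the minus strand.
SPRY2: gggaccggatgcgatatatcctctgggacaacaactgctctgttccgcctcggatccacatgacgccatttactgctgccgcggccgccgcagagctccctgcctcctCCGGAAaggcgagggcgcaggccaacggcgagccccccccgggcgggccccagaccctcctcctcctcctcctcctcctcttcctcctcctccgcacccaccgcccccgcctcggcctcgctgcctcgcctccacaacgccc
PHLDA1: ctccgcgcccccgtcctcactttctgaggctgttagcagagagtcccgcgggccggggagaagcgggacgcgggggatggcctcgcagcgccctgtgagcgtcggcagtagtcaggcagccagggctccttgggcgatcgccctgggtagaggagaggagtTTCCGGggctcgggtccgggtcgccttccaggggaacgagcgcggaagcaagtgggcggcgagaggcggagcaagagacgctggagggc
In SPRY2 CCGGAA begins at -142 from the start on the gene's own strand. In PHLDA1 it begins at -89 and reads on the opposite strand, printed as its reverse complement. Both windows are 70.4% GC. CCGGAA was in 2 of the 6 windows, against 14.5% of 35116 RefSeq windows of the same length. The AP-1 site TGACTCA, the cyclic-AMP element TGACGTCA, the CArG box and TATAAA were in 0 of the 6 windows, against 4.2%, 1.65%, 1.16% and 10.7% of all windows. A match is a string of letters, and no binding was measured here.

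DCAF8 averaged 12.02 ± 0.304 FPKM in siDCAF8 and 15.8 ± 2.23 in siDCAF8+siLSH cells, against 39.7 ± 1.08 in siNS cells (SD, n = 2 each), and WDR76 averaged 267 ± 0.446 FPKM in oeWDR76 cells, against 3.21 ± 0.446 in siNS cells. HELLS, which encodes LSH, averaged 4.06 ± 0.0141 FPKM in siDCAF8+siLSH cells, below the 7.14 ± 0.438 of siDCAF8 cells and close to the 4.02 ± 0.0495 of siNS cells. With erastin HELLS averaged 2.24 ± 0.17 FPKM in siDCAF8+siLSH cells, against 3.49 ± 0.163 in siNS cells (log2 difference -0.47, adjusted p = 2.14e-05). DCAF8 was less depleted in siDCAF8+siLSH than in siDCAF8 cells, by 0.37 log2 untreated and 0.54 with erastin (limma adjusted p = 0.00156 and 4.54e-05). Wherever these genotypes are compared below, LSH targeting and weaker DCAF8 depletion cannot be told apart. Of 8 mesenchymal markers 7 averaged at least 1 FPKM (THY1 did not), with summed levels of 2384 to 4203 FPKM per library, and the epithelial, endothelial and blood lists summed to at most 5.88, 4.41 and 3.78 FPKM. Library totals ran from 436290 to 503867 FPKM, read depth is unknown, and the 2 libraries of each group correlated at 0.998 across genes (Pearson's r of log2 values). The oeWDR76 libraries stood apart on base composition: their values rose by 0.185 to 0.232 log2 for each 10% of transcript GC content, against -0.16 to 0.0307 in the other 12 libraries. Among those 12 this slope also differed between groups. It was 0.0307 and -0.0246 in siDCAF8, and -0.138 and -0.14 in siDCAF8/Erastin libraries. The siDCAF8+siLSH libraries had -0.113 and -0.16, and their erastin-treated pair -0.053 and -0.0645.

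Averaged over the 16 libraries, DUSP5 (62.9 FPKM) and PHLDA1 (53.5 FPKM) were the most abundant of the 10, followed by DUSP4 (42.0 FPKM), but their order changed between groups: PHLDA1 was above DUSP5 in siDCAF8 (69.6 and 49.2 FPKM), and below DUSP4 in siNS/Erastin cells (35.7 and 48.4 FPKM). NRAS (26.5), ETV5 (25.5), ETV4 (23.2) and SPRY4 (22.0 FPKM) formed a middle band whose libraries overlapped each other. SPRY2 averaged 14.7 and SPRED1 8.61 FPKM. DUSP6 stood far below, at 0.215 FPKM. Over the 9 expressed genes the ratio of the highest to the lowest library ran from 1.79 for ETV5 to 3.28 for DUSP5.

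**Figure D1:**
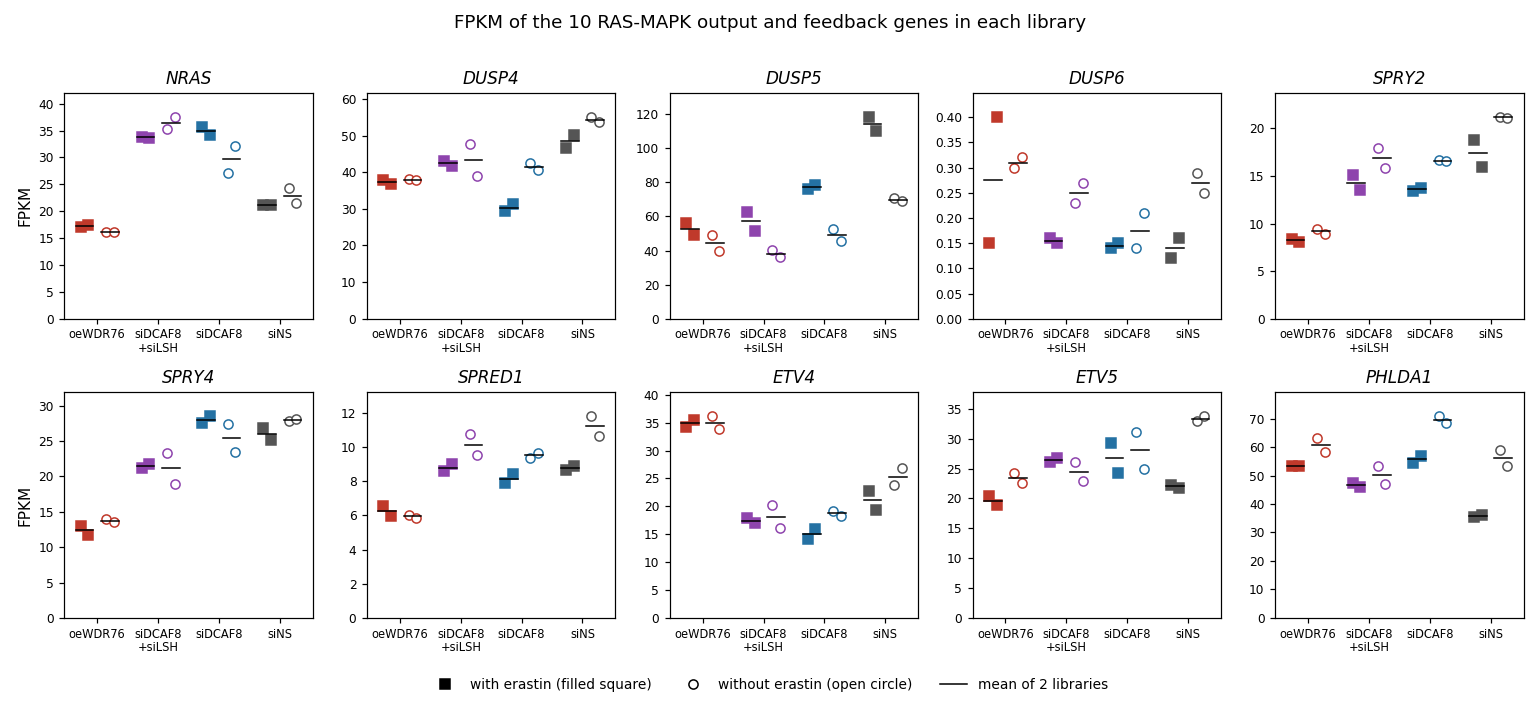
FPKM (vertical axis, from 0, own scale for each gene) in every library of the 4 genotypes, filled squares with erastin and open circles without, with the mean of 2 libraries as a bar. The SPRY2, SPRY4 and SPRED1 values of oeWDR76 cells lie below those of every other genotype, and DUSP6 reaches at most 0.4 FPKM.

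Differences below are on the log2(FPKM + 1) scale, which understates the change of low genes, and a gene is called at an adjusted p under 0.05 from limma across 11260 genes. DUSP6 did not pass the filter of a mean of at least 1 FPKM, so 9 of the 10 members were tested. These are bulk libraries, in which fewer cells that express a gene and less RNA per cell cannot be told apart. In oeWDR76 against siNS cells, 1 of the 9 (ETV4) was called higher and 7 lower, where 41.6% of all genes were higher and 32% lower (73.6% called). With erastin in both, 2 were higher and 6 lower, where 45.2% of all genes were higher and 31% lower (76.2% called). The members' median difference was -0.51 without erastin and -0.37 with it, beside 0.07 and 0.11 over all genes. Median-ratio scaling moved the all-gene median of the erastin-treated comparison to 0.01, and after the GC correction the share of higher genes among all called there was 48.8% in place of 59.3%.

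In siDCAF8 against siNS cells, 2 members (NRAS and PHLDA1) were called higher and 6 lower, where 31% of all genes were higher and 29.9% lower (61% called). With erastin in both, 3 were higher and 4 lower, where 34.8% were higher and 30% lower (64.8% called). In siDCAF8+siLSH against siNS cells, 1 member (NRAS) was higher and 7 lower, where 35.9% were higher and 30.9% lower (66.8% called). With erastin in both, 3 were higher and 5 lower, where 39.3% were higher and 26.7% lower (66% called); median-ratio scaling moved the share of higher genes among all called to 49.1%, against 59.5%. These 6 comparisons share the siNS libraries. Counts of 7 or 8 called members of 9 stand beside backgrounds of 61% to 76.2%, so the number called says little about the members, and their sizes and signs carry the description.

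**Figure D2:**
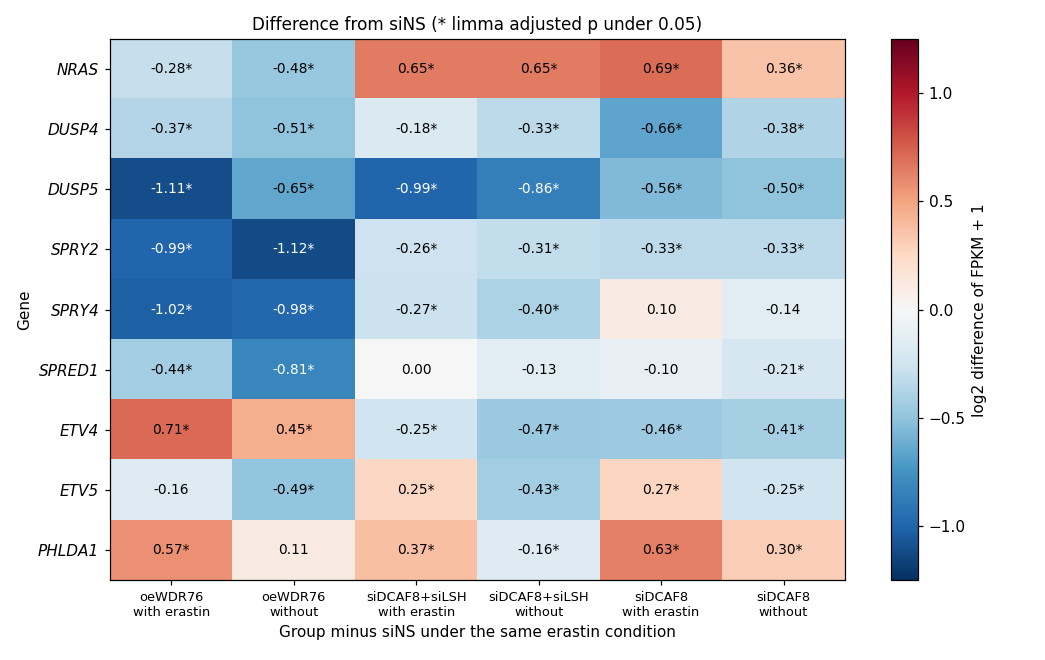
Log2 difference of FPKM + 1 (colour and printed value, red higher and blue lower) of each genotype against siNS under the same erastin condition for the 9 tested genes, with stars for limma adjusted p under 0.05. DUSP4, DUSP5 and SPRY2 are lower in all 6 columns, NRAS is higher in the siRNA columns and lower in the oeWDR76 columns, and ETV4 has the opposite signs to NRAS.

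Co-depletion against DCAF8 depletion alone had 1 member higher and 3 lower without erastin, where 26.4% of all genes were higher and 21.7% lower (48.2% called). With erastin it also had 1 higher and 3 lower, where 30.4% were higher and 19.3% lower (49.7% called); the share of higher genes among all called was 61.1%, and 49.6% with median-ratio scaling. Erastin in siNS cells left 1 member higher (DUSP5) and 5 lower, where 15.1% of all genes were higher and 22.4% lower (37.5% called; 40.4% of calls were higher, and 52.1% with quantile normalization). In siDCAF8 cells erastin left 2 higher and 5 lower, where 18.3% were higher and 22.5% lower (40.9% called). In siDCAF8+siLSH cells DUSP5 was the 1 member called, higher, where 10.6% were higher and 9.54% lower (20.2% called). In oeWDR76 cells limma called 0 of the 9 members, where 0.471% of genes were higher and 0.977% lower (1.45% called), and 3 of the 9 had an unadjusted p under 0.05 (DUSP5, ETV5 and PHLDA1).

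**Figure D3:**
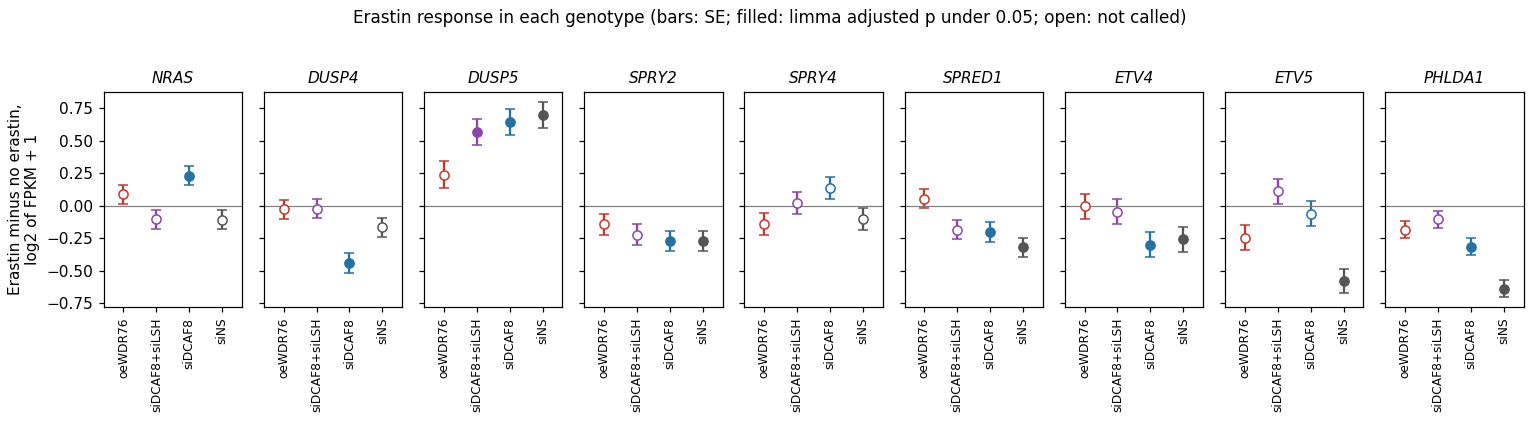
Erastin response (groups with erastin minus groups without, log2 of FPKM + 1, bars of 1 SE) of the 9 tested genes in each genotype; filled points have limma adjusted p under 0.05. DUSP5 is above 0 in all 4 genotypes, and PHLDA1 is farthest below 0 in siNS cells, at -0.64.

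NRAS encodes the RAS switch itself, on chromosome 1 (114704464 to 114716894, GRCh38). Its transcript was raised where DCAF8 was depleted and lowered where WDR76 was overexpressed. Without erastin it had 16.1 and 16.2 FPKM in oeWDR76, 35.2 and 37.5 in siDCAF8+siLSH, 27.2 and 32.2 in siDCAF8, and 24.2 and 21.6 in siNS cells. In the erastin-treated groups it had 17.0 and 17.4 FPKM in oeWDR76, 33.9 and 33.6 in siDCAF8+siLSH, 35.7 and 34.2 in siDCAF8, and 21.2 and 21.2 in siNS cells. Every siRNA library against DCAF8 lay above every siNS library, and every oeWDR76 library lay below.

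For NRAS, siDCAF8 minus siNS was 0.36 ± 0.07 (SE; adjusted p = 0.000422) and 0.69 with erastin in both (adjusted p = 3.49e-07). Co-depleted minus siNS cells gave 0.65 in either condition (adjusted p = 7.02e-07 untreated, 7.59e-07 in erastin). In oeWDR76 minus siNS cells it fell by 0.48 (adjusted p = 1.49e-05) and, with erastin, by 0.28 (adjusted p = 0.00191). NRAS transcripts are 38.4% GC, and after a correction for GC content and length these 2 differences were -0.26 (adjusted p = 0.000569) and -0.11 (adjusted p = 0.0808). Untreated co-depleted minus siDCAF8 cells differed by 0.29 (adjusted p = 0.00376), and erastin-treated ones by -0.05 (adjusted p = 0.617); the first was 0.13 after the GC correction (adjusted p = 0.0699) and 0.17 without siDCAF8 replicate 1 (adjusted p = 0.0919).

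Erastin raised NRAS in siDCAF8 cells by 0.23 ± 0.07 (adjusted p = 0.0179), while the difference was -0.11 in siNS cells (adjusted p = 0.263). That call was lost after the GC correction (0.06, adjusted p = 0.439), without siDCAF8 replicate 1 (0.11, adjusted p = 0.284), without siDCAF8/Erastin replicate 1 (0.20, adjusted p = 0.103) and with only the groups compared (adjusted p = 0.052). NRAS was the 1 member called higher by erastin in siDCAF8 cells besides DUSP5.

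The phosphatase genes DUSP4 (chromosome 8, 29333062 to 29350750) and DUSP5 (chromosome 10, 110497867 to 110511544) were lower than in siNS cells in every genotype comparison. Erastin raised DUSP5 in 3 of the 4 genotypes and lowered DUSP4 in siDCAF8 cells. The DUSP4 response in siDCAF8 cells was not called different from that in siNS cells. DUSP5, a nuclear phosphatase selective for ERK, had 49.2 and 39.8 FPKM in oeWDR76, 40.2 and 36.1 in siDCAF8+siLSH, 52.6 and 45.8 in siDCAF8, and 71.0 and 68.9 in siNS cells without erastin. With erastin it had 56.0 and 49.2 FPKM in oeWDR76, 62.6 and 51.7 in siDCAF8+siLSH, 76.4 and 78.3 in siDCAF8, and 118 and 110 in siNS cells. The erastin-treated libraries lay above the untreated ones in siNS, siDCAF8 and siDCAF8+siLSH cells without overlap, and the 2 conditions overlapped in oeWDR76 cells.

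Erastin raised DUSP5 by 0.70 ± 0.10 in siNS (adjusted p = 6.15e-05), 0.65 in siDCAF8 (adjusted p = 0.000128) and 0.57 in siDCAF8+siLSH cells (adjusted p = 0.000913), folds of 1.62, 1.56 and 1.48 on the FPKM + 1 scale. In oeWDR76 cells the difference was 0.24 (adjusted p = 0.299). The response of oeWDR76 minus that of siNS cells was -0.46 ± 0.14 (adjusted p = 0.0417). It missed the threshold, at -0.51 to -0.31 and adjusted p = 0.0542 to 0.192, when any 1 of 6 libraries was left out: siNS replicate 1 or 2, siNS/Erastin replicate 1 or 2, oeWDR76 replicate 1, or oeWDR76/Erastin replicate 2. With no filter on low values, so that all 17552 genes were tested, its adjusted p was 0.128. DUSP5 was lower in erastin-treated oeWDR76 than in siNS/Erastin cells by 2.15-fold (-1.11, adjusted p = 3.19e-08) and in erastin-treated co-depleted cells by 1.99-fold (-0.99, adjusted p = 2.73e-07). Without erastin the differences from siNS were -0.65, -0.86 and -0.50 in oeWDR76, siDCAF8+siLSH and siDCAF8 cells (adjusted p at most 0.000408).

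DUSP5 was also lower in co-depleted than in siDCAF8 cells: the untreated difference was -0.36 (adjusted p = 0.00833) and the erastin-treated one -0.44 (adjusted p = 0.00196). The untreated one became -0.26 without siDCAF8 replicate 1 (adjusted p = 0.111) and -0.28 without siDCAF8+siLSH replicate 2 (adjusted p = 0.0905).

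DUSP4, a nuclear phosphatase that acts on ERK and on other MAP kinases, had 38 and 37.96 FPKM in oeWDR76, 47.7 and 39.0 in siDCAF8+siLSH, 42.6 and 40.5 in siDCAF8, and 55.0 and 53.7 in siNS cells. Under erastin it had 37.8 and 36.8 FPKM in oeWDR76, 43.0 and 41.8 in siDCAF8+siLSH, 29.5 and 31.2 in siDCAF8, and 46.5 and 50.2 in siNS cells. The siDCAF8/Erastin pair was the lowest of the 8 groups and overlapped none of them.

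Erastin lowered DUSP4 in siDCAF8 cells by 0.44 ± 0.07 (adjusted p = 0.000229), and siDCAF8/Erastin minus siNS/Erastin was -0.66 (adjusted p = 8.38e-07). The siDCAF8 response minus that of siNS cells was -0.275 ± 0.10 and was not called (adjusted p = 0.0715). After the GC correction it was -0.21 (adjusted p = 0.0893), and it was called with only the groups compared (adjusted p = 0.0488). In siDCAF8+siLSH/Erastin cells DUSP4 was 0.47 higher than in siDCAF8/Erastin cells (adjusted p = 6.87e-05), and the erastin response of co-depleted minus siDCAF8 cells was 0.42 ± 0.10 (adjusted p = 0.0121). This difference of responses was 0.27 after the GC correction (adjusted p = 0.108), 0.38 without siDCAF8 replicate 1 (adjusted p = 0.0537) and 0.28 without siDCAF8+siLSH replicate 2 (adjusted p = 0.0529). Erastin in siNS cells gave -0.17 (adjusted p = 0.0888), which passed only without either siDCAF8+siLSH library (adjusted p = 0.0264 and 0.0261). DUSP4 differed from siNS by -0.51 in oeWDR76, -0.33 in co-depleted and -0.38 in siDCAF8 cells (adjusted p at most 0.000896); the co-depleted value was -0.19 without siDCAF8+siLSH replicate 2. The smallest difference, siDCAF8+siLSH/Erastin minus siNS/Erastin (-0.18, adjusted p = 0.0365), was lost without siNS/Erastin replicate 2 (-0.13) or either erastin-treated co-depleted library (-0.21 and -0.16), and when all 17552 genes were tested (adjusted p = 0.0699).

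DUSP6 (chromosome 12, 89347825 to 89352859) encodes the cytoplasmic ERK phosphatase, usually among the transcripts that follow ERK most closely. It had 0.3 and 0.32 FPKM in oeWDR76, 0.23 and 0.27 in siDCAF8+siLSH, 0.14 and 0.21 in siDCAF8, and 0.29 and 0.25 in siNS cells. In erastin-treated cells it had 0.15 and 0.4 FPKM in oeWDR76, 0.16 and 0.15 in siDCAF8+siLSH, 0.14 and 0.15 in siDCAF8, and 0.12 and 0.16 in siNS cells. Some pairs of groups did not overlap, among them siNS/Erastin below siNS and siDCAF8+siLSH/Erastin below siDCAF8+siLSH, at levels of at most 0.4 FPKM. With no filter on low values limma called DUSP6 in 0 of 16 contrasts, with a lowest adjusted p of 0.0851. Its unadjusted limma p was under 0.05 in 2 of the 16, erastin in siNS cells (-0.16) and oeWDR76/Erastin minus siNS/Erastin (0.15).

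SPRY2 (chromosome 13, 80335976 to 80341115), SPRY4 (chromosome 5, 142310427 to 142325055) and SPRED1 (chromosome 15, 38252851 to 38357249) encode related inhibitors; SPRED1 is known to bring neurofibromin to RAS. All were lowest in oeWDR76 cells as deposited, which for SPRED1 under erastin did not hold against siNS/Erastin after the GC correction. SPRY2 had 9.47 and 8.95 FPKM in oeWDR76, 17.9 and 15.8 in siDCAF8+siLSH, 16.7 and 16.6 in siDCAF8, and 21.2 and 21.1 in siNS cells. With erastin it had 8.4 and 8.09 FPKM in oeWDR76, 15.1 and 13.5 in siDCAF8+siLSH, 13.4 and 13.8 in siDCAF8, and 18.8 and 15.97 in siNS cells. The oeWDR76 libraries lay below every other library by more than 3 FPKM.

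Against siNS, SPRY2 in oeWDR76 cells was lower by 2.17-fold (-1.12 ± 0.08, adjusted p = 1.66e-09) and, with erastin, by 1.98-fold (-0.99, adjusted p = 5.91e-09). The GC correction left these at about the same size or larger, -1.2 and -1.1. The siDCAF8 and co-depleted cells differed from siNS by -0.33 (adjusted p = 0.00173) and -0.31 (adjusted p = 0.00225), and in erastin by -0.33 (adjusted p = 0.00158) and -0.26 (adjusted p = 0.00765). Without siNS/Erastin replicate 1 the erastin-treated values were -0.22 for siDCAF8 cells, still called, and -0.15 for co-depleted cells (adjusted p = 0.146), and without siDCAF8+siLSH/Erastin replicate 2 the co-depleted one was -0.19 (adjusted p = 0.101).

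Erastin lowered SPRY2 by 0.27 in siNS cells (adjusted p = 0.0127) and by 0.27 in siDCAF8 cells (adjusted p = 0.012). Leaving out siNS replicate 1 or 2 ended the siNS call (adjusted p = 0.0578 and 0.0587), as did leaving out siNS/Erastin replicate 2 (-0.16, adjusted p = 0.18). Leaving out replicate 1 of siDCAF8 or of siDCAF8/Erastin ended the siDCAF8 call (adjusted p = 0.0604 and 0.0622). In siDCAF8+siLSH cells the difference was -0.22 with adjusted p = 0.0567 and missed the threshold, and it was called under median-ratio scaling (adjusted p = 0.0467) and quantile normalization (adjusted p = 0.0369).

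SPRY4 had 13.96 and 13.5 FPKM in oeWDR76, 23.3 and 19.0 in siDCAF8+siLSH, 27.4 and 23.5 in siDCAF8, and 27.8 and 28.2 in siNS cells. Under erastin it had 12.9 and 11.8 FPKM in oeWDR76, 21.1 and 21.7 in siDCAF8+siLSH, 27.5 and 28.5 in siDCAF8, and 26.9 and 25.2 in siNS cells. The oeWDR76 libraries were again the lowest, and the siDCAF8/Erastin and siNS/Erastin libraries were close.

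SPRY4 in oeWDR76 against siNS cells was lower by 1.97-fold (-0.98 ± 0.09, adjusted p = 2.1e-08) and, with erastin, by 2.02-fold (-1.02, adjusted p = 1.05e-08), with differences of -1.15 and -1.21 after the GC correction. Its siDCAF8 minus siNS difference was -0.14 in untreated cells (adjusted p = 0.178) and 0.10 in erastin-treated cells (adjusted p = 0.297). The untreated one was called after the GC correction (-0.16, adjusted p = 0.0499) and without siDCAF8 replicate 1 (-0.24, adjusted p = 0.0454), and was -0.03 without siDCAF8 replicate 2. Co-depleted minus siNS cells gave -0.40 (adjusted p = 0.000602; -0.25 without siDCAF8+siLSH replicate 2) and, with erastin, -0.27 (adjusted p = 0.0108; lost without siNS/Erastin replicate 1 or siDCAF8+siLSH/Erastin replicate 1, adjusted p = 0.0827 and 0.0577). Co-depleted minus siDCAF8 cells gave -0.37 with erastin (adjusted p = 0.00176) and -0.26 without (adjusted p = 0.0185). The untreated value was -0.17 after the GC correction (adjusted p = 0.0529), -0.15 without siDCAF8 replicate 1 (adjusted p = 0.233) and -0.12 without siDCAF8+siLSH replicate 2 (adjusted p = 0.309); it was also lost when all 17552 genes were tested (adjusted p = 0.0515) and with only the groups compared (adjusted p = 0.0616). Erastin gave no call for SPRY4 in any of the 4 genotypes, with differences of -0.14 to 0.14; after the GC correction it was called higher in siDCAF8 cells (0.25, adjusted p = 0.0116), as was the siDCAF8 response over that of siNS (0.30, adjusted p = 0.04).

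SPRED1 had 6.05 and 5.87 FPKM in oeWDR76, 10.8 and 9.53 in siDCAF8+siLSH, 9.39 and 9.67 in siDCAF8, and 11.8 and 10.7 in siNS cells. In erastin-treated cells it had 6.54 and 5.94 FPKM in oeWDR76, 8.62 and 8.99 in siDCAF8+siLSH, 7.88 and 8.43 in siDCAF8, and 8.68 and 8.91 in siNS cells. Its oeWDR76 libraries lay below all others, but SPRED1 transcripts are 38.9% GC, at the low end of the 10.

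SPRED1 was lower in oeWDR76 than in siNS cells by 0.81 ± 0.07 log2 (adjusted p = 3.8e-08), and by 0.36 after the GC correction (adjusted p = 8.9e-05). With erastin in both the difference was -0.44 (adjusted p = 4.45e-05) as deposited and 0.01 after the correction (adjusted p = 0.882), so the correction removed the erastin-treated call and turned its sign. Erastin lowered SPRED1 in siNS cells by 0.32 (adjusted p = 0.00305) and in siDCAF8 cells by 0.20 (adjusted p = 0.0381); the second call was lost, at -0.25 to -0.16 and adjusted p = 0.0533 to 0.2, without any 1 of the 4 siDCAF8 and siDCAF8/Erastin libraries, when all 17552 genes were tested (adjusted p = 0.0625) and with only the groups compared (adjusted p = 0.0697). After the GC correction it was larger, -0.36 (adjusted p = 0.000484), and 3 comparisons not called as deposited were called: siDCAF8/Erastin minus siNS/Erastin (-0.23, adjusted p = 0.00427), untreated co-depleted minus siNS (-0.26, adjusted p = 0.00187) and siDCAF8+siLSH/Erastin minus siDCAF8/Erastin (0.20, adjusted p = 0.0139). The response of oeWDR76 minus siNS cells was 0.37 ± 0.10 (adjusted p = 0.0261). It missed the threshold (0.31 to 0.39, adjusted p = 0.0564 to 0.111) without siNS replicate 1, siNS/Erastin replicate 1, oeWDR76 replicate 1 or 2, or oeWDR76/Erastin replicate 1. Between siDCAF8 and siNS cells SPRED1 differed by -0.21 (adjusted p = 0.0192), and by -0.15 and -0.20 without siNS replicate 1 or siDCAF8 replicate 1 (adjusted p = 0.185 and 0.0879).

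**Figure D4:**
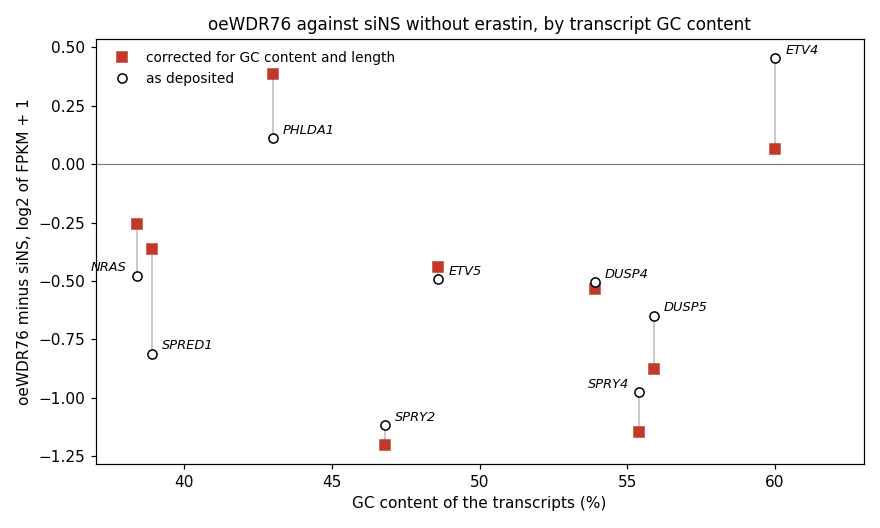
Difference of oeWDR76 minus siNS cells without erastin (log2 of FPKM + 1) against the GC content of each gene's transcripts, open circles as deposited and red squares after the correction for GC content and length. SPRY2 and SPRY4 stay near or below -1, while ETV4 moves to 0.06 and SPRED1 to -0.36.

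ETV4 (chromosome 17, 43527843 to 43546432) and ETV5 (chromosome 3, 186046317 to 186109112) encode closely related ETS factors, yet they did not move together. ETV4 had 36.2 and 33.8 FPKM in oeWDR76, 20.2 and 16.1 in siDCAF8+siLSH, 19.2 and 18.3 in siDCAF8, and 23.8 and 26.9 in siNS cells. With erastin it had 34.3 and 35.48 FPKM in oeWDR76, 18.0 and 17.0 in siDCAF8+siLSH, 14.2 and 15.9 in siDCAF8, and 22.7 and 19.4 in siNS cells. All oeWDR76 libraries lay above, and all libraries with DCAF8 targeted lay below, the siNS libraries without erastin.

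ETV4 was higher in oeWDR76 than in siNS cells by 0.45 ± 0.10 (adjusted p = 0.00042), and by 0.71 in the erastin-treated pair of groups (adjusted p = 3.82e-06). ETV4 transcripts have the highest GC content of the 10, 60.0%, and after the GC correction these were 0.06 (adjusted p = 0.506) and 0.24 (adjusted p = 0.0181). Its siDCAF8 minus siNS difference was -0.41 (adjusted p = 0.00138), and -0.46 with erastin in both (adjusted p = 0.000504). Co-depleted minus siNS cells gave -0.47 (adjusted p = 0.000418; -0.31 without siDCAF8+siLSH replicate 2) and, with erastin, -0.25 (adjusted p = 0.028). The erastin-treated one lost its call when siNS/Erastin replicate 1 (-0.14, adjusted p = 0.281) or siDCAF8+siLSH/Erastin replicate 2 (-0.21, adjusted p = 0.136) was left out, and when all 17552 genes were tested (adjusted p = 0.0759).

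Erastin lowered ETV4 by 0.26 in siNS cells (adjusted p = 0.0448) and by 0.30 in siDCAF8 cells (adjusted p = 0.0193), and both calls were weakly held. After the GC correction they were -0.15 and -0.14 (adjusted p = 0.156 and 0.21), and in siNS cells median-ratio scaling and quantile normalization gave adjusted p = 0.0743 and 0.0553. When all 17552 genes were tested these calls had adjusted p = 0.114 and 0.065. The siNS value was -0.17 without siNS replicate 2 and -0.15 without siNS/Erastin replicate 2 (adjusted p = 0.306 and 0.344). Leaving out either library of siDCAF8, oeWDR76, oeWDR76/Erastin or siDCAF8+siLSH/Erastin also moved its adjusted p to 0.0503 to 0.0535. The siDCAF8 value was -0.27 without siDCAF8 replicate 1 and -0.22 without siDCAF8/Erastin replicate 1 (adjusted p = 0.113 and 0.152).

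ETV5 had 24.3 and 22.6 FPKM in oeWDR76, 26.1 and 22.9 in siDCAF8+siLSH, 31.1 and 25.0 in siDCAF8, and 33.0 and 33.8 in siNS cells. Under erastin it had 20.4 and 18.9 FPKM in oeWDR76, 26.1 and 26.8 in siDCAF8+siLSH, 29.3 and 24.3 in siDCAF8, and 22.2 and 21.8 in siNS cells. The siNS cells held the highest values without erastin, and with it they lay below both DCAF8-targeted groups.

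Erastin lowered ETV5 in siNS cells by 0.58 ± 0.10 (adjusted p = 0.000193), and gave -0.25 in oeWDR76 (adjusted p = 0.256), 0.11 in co-depleted (adjusted p = 0.446) and -0.06 in siDCAF8 cells (adjusted p = 0.636). The responses differed from that of siNS by 0.69 ± 0.13 in co-depleted (adjusted p = 0.00185) and 0.52 in siDCAF8 cells (adjusted p = 0.013). The siDCAF8 one was 0.37 without siDCAF8 replicate 2 and 0.39 without siDCAF8/Erastin replicate 1 (adjusted p = 0.0604 and 0.0646), and had adjusted p = 0.0525 with no filter on low values. As deposited the sign against siNS turned with treatment: untreated co-depleted minus siNS cells gave -0.43 (adjusted p = 0.000714) and the same difference between erastin-treated cells was 0.25 (adjusted p = 0.0265), and siDCAF8 minus siNS was -0.25 untreated (adjusted p = 0.0303) and 0.27 when both had erastin (adjusted p = 0.0217). The untreated co-depleted call held without any 1 library. The erastin-treated co-depleted call was lost without either siNS/Erastin or either siDCAF8+siLSH/Erastin library (0.24 to 0.27, adjusted p = 0.0616 to 0.103), under median-ratio scaling (0.17, adjusted p = 0.131) and under quantile normalization (0.19, adjusted p = 0.0938). The siDCAF8 calls were lost without siNS replicate 1 or 2 or siDCAF8 replicate 2 (-0.27 to -0.10), and with erastin without siNS/Erastin replicate 1 or 2 or siDCAF8/Erastin replicate 1 (0.13 to 0.28). With no filter on low values 3 of these 4 calls were lost, the untreated siDCAF8 one (adjusted p = 0.0824) and the erastin-treated siDCAF8 and co-depleted ones (adjusted p = 0.0652 and 0.073). In oeWDR76 minus siNS cells ETV5 was lower by 0.49 log2 (adjusted p = 0.000182), and by 0.16 with erastin in both, which was not called (adjusted p = 0.139) unless scaled by median ratio (-0.27, adjusted p = 0.0188) or quantile normalized (-0.30, adjusted p = 0.00903).

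PHLDA1 (chromosome 12, 76025447 to 76031776) was lowered by erastin in siNS cells, and its erastin response differed from that of siNS in the other 3 genotypes. It had 63.2 and 58.3 FPKM in oeWDR76, 53.3 and 47.2 in siDCAF8+siLSH, 70.8 and 68.4 in siDCAF8, and 59.1 and 53.4 in siNS cells. In erastin-treated cells it had 53.4 and 53.3 FPKM in oeWDR76, 47.3 and 45.9 in siDCAF8+siLSH, 54.4 and 57.0 in siDCAF8, and 35.4 and 36.02 in siNS cells. The siNS/Erastin libraries lay below every other library, by more than 9 FPKM.

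Erastin lowered PHLDA1 by 0.64 ± 0.07 in siNS cells, a 1.56-fold difference (adjusted p = 2.22e-06), and by 0.32 in siDCAF8 cells (adjusted p = 0.00115). It gave -0.18 in oeWDR76 (adjusted p = 0.205) and -0.10 in co-depleted cells (adjusted p = 0.281). The response of each genotype was above that of siNS, by 0.46 in oeWDR76 (adjusted p = 0.00415), 0.54 in co-depleted (adjusted p = 0.000715) and 0.32 in siDCAF8 cells (adjusted p = 0.0204). The siDCAF8 one missed the threshold (0.25 to 0.31, adjusted p = 0.0589 to 0.112) without siNS replicate 1, siNS/Erastin replicate 1, siDCAF8 replicate 2 or siDCAF8/Erastin replicate 2. These 3 differences share the siNS and siNS/Erastin libraries.

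With erastin in both, PHLDA1 was higher than in siNS cells by 0.57 in oeWDR76 (adjusted p = 5.24e-07), 0.37 in co-depleted (adjusted p = 8.69e-05) and 0.63 in siDCAF8 cells (adjusted p = 3.31e-07). Without erastin the differences were 0.11 in oeWDR76 (adjusted p = 0.136; 0.39, adjusted p = 9.88e-06 after the GC correction; 0.18, adjusted p = 0.0477 without siNS replicate 1), -0.16 in co-depleted and 0.30 in siDCAF8 cells (adjusted p = 0.0372 and 0.000692). The co-depleted one was -0.09 without siNS replicate 1 and -0.08 without siDCAF8+siLSH replicate 2 (adjusted p = 0.325 and 0.371), and it was not called with no filter on low values or with only the groups compared (adjusted p = 0.0563 and 0.0728). Untreated co-depleted minus siDCAF8 cells differed by -0.47 (adjusted p = 2.8e-05), and erastin-treated ones by -0.25 (adjusted p = 0.00403).

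Differences of erastin responses were tested for all 9 members, and gave calls in both directions. Of siDCAF8 minus siNS, 3 were higher (NRAS, ETV5 and PHLDA1) and 0 lower, where 11% of all genes were higher and 9.84% lower (20.8% called). Of oeWDR76 minus siNS, 2 were higher (SPRED1 and PHLDA1) and 1 lower (DUSP5), where 9.04% were higher and 5.11% lower (14.1% called). Of co-depleted minus siNS, 2 were higher (ETV5 and PHLDA1) and 0 lower, where 15.6% were higher and 9.13% lower (24.8% called). Of co-depleted minus siDCAF8, 1 was higher (DUSP4) and 1 lower (NRAS), where 14.2% were higher and 9.24% lower (23.5% called). Median-ratio scaling moved the share of higher genes among all called from these oeWDR76, co-depleted and co-depleted minus siDCAF8 contrasts to 50.5%, 51.3% and 50%, in place of 63.9%, 63.2% and 60.6%. After the GC correction the last of these contrasts called 236 genes in place of 2642; neither DUSP4 nor NRAS was called there, and PHLDA1 was (0.31, adjusted p = 0.044).

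NRAS carried a pair of these differences. Its response in siDCAF8 minus siNS cells was 0.34 ± 0.10 (adjusted p = 0.0283) and in co-depleted minus siDCAF8 cells -0.33 (adjusted p = 0.0284). After the GC correction they were 0.18 (adjusted p = 0.11) and -0.10 (adjusted p = 0.553), and neither was called when all 17552 genes were tested (adjusted p = 0.0608 and 0.0617) or with only the groups compared (adjusted p = 0.0577 for both). The first was also lost (0.22 to 0.34, adjusted p = 0.052 to 0.146) without siNS replicate 1, either siNS/Erastin library, siDCAF8 replicate 1 or siDCAF8/Erastin replicate 1. The second was lost (-0.34 to -0.22, adjusted p = 0.0647 to 0.154) without siDCAF8 replicate 1, siDCAF8/Erastin replicate 1, siDCAF8+siLSH replicate 2 or either siDCAF8+siLSH/Erastin library.

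Across the 8 group means, the inhibitors SPRY2, SPRY4 and SPRED1 had the most alike patterns among the members. Pearson's r of log2 values was 0.97 for SPRY2 with SPRED1, 0.89 for SPRY2 with SPRY4 and 0.83 for SPRED1 with SPRY4, over means that share all 16 libraries and the GC trend of the oeWDR76 ones. Among 11259 other genes SPRED1 ranked 34 in likeness to SPRY2, and SPRY2 ranked 8 in likeness to SPRED1. SPRY4 ranked 280 for SPRY2 and 509 for SPRED1, and for SPRY4 they ranked 584 and 1083. Many genes outside the members were thus more alike to each of them. As deposited, ETV4 ran opposite to NRAS (r = -0.94) and to SPRY4 (r = -0.78). ETV4 transcripts are 60.0% GC and NRAS transcripts 38.4%, and no r after the GC correction is given. In oeWDR76 minus siNS cells the correction moved ETV4 from 0.45 to 0.06 and NRAS from -0.48 to -0.26. In siDCAF8 minus siNS cells the corrected values were -0.40 for ETV4 and 0.375 for NRAS. Of the 36 pairs 23 were positive, 6 were over 0.7 and the median was 0.185, so the 9 genes did not share a single pattern.

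Of 11259 other genes, the one most like each member by this measure was GPAM for NRAS (r = 0.996), EMC10 for DUSP4 (0.975), LOC101928841 for DUSP5 (0.981), GAB3 for SPRY2 (0.994), MACF1 for SPRY4 (0.991), CSNK1A1 for SPRED1 (0.99), PCOLCE for ETV4 (0.995), RFX5 for ETV5 (0.961) and TMEM204 for PHLDA1 (0.993). Each r is the highest of 11259 over only 8 means, so these names describe the pattern and nothing more.

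The rest of the pathway was read from 5 lists. Of 16 receptors and ligands 10 were expressed enough to test. In oeWDR76 minus siNS cells, where 73.6% of all genes were called, 2 were called higher and 5 lower, among them PDGFRB, the PDGF-BB receptor (-1.70, adjusted p = 3.1e-09), EGFR, the EGF receptor (-1.47, adjusted p = 2.2e-10), and HBEGF, an EGFR ligand (-0.87, adjusted p = 2.86e-09). EGFR averaged 14.7 ± 1.14 FPKM in oeWDR76 and 42.4 ± 1.26 FPKM in siNS cells (SD, n = 2 each). In siDCAF8 minus siNS cells (61% of all genes called) 3 were higher and 4 lower. PDGFRB was at -1.13 (adjusted p = 1.04e-06), FGFR1 at -0.55 (adjusted p = 1.66e-05) and AXL, a receptor kinase bound by GAS6, at 0.41 (adjusted p = 6.57e-05). In co-depleted minus siNS cells (66.8% of all genes called) 2 were higher and 5 lower. PDGFRB was at -1.37 (adjusted p = 7.5e-08), AXL at -0.73 (adjusted p = 1e-07) and FGFR1 at -0.81 (adjusted p = 1.54e-07). Co-depleted minus siDCAF8 cells differed in AXL by -1.14 (adjusted p = 1.48e-08). Erastin in siNS cells (37.5% of all genes called) left 1 higher, PDGFA, a PDGF receptor ligand (0.78, adjusted p = 1.59e-05), and 0 lower; EGFR had no erastin call in siNS cells.

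Of 20 genes of the core relay from adaptors to ERK and its kinase targets, 19 were tested. In oeWDR76 minus siNS cells 5 were higher and 10 lower, beside 41.6% and 32% of all genes. HRAS, another RAS switch, was at 1.13 (adjusted p = 3.7e-09) as deposited and 0.56 after the GC correction. So HRAS rose in the cells in which NRAS fell. In siDCAF8 minus siNS cells 4 were higher and 8 lower (31% and 29.9% of all genes), with MAP2K1 (MEK1) at -0.68 (adjusted p = 4.93e-08) and MAPK3 (ERK1) at -0.79 (adjusted p = 3.89e-08). MAPK3 averaged 18.9 ± 1.33 FPKM in siDCAF8 and 33.4 ± 0.0919 FPKM in siNS cells (SD, n = 2 each). Co-depleted minus siNS cells had 5 higher and 7 lower (35.9% and 30.9% of all genes), with MAP2K1 at -0.54 and MAPK3 at -0.76 (adjusted p = 4.59e-07 and 3.94e-08). Erastin in siNS cells had 1 higher and 3 lower as deposited (15.1% and 22.4% of all genes). After the GC correction the list had 4 higher and 1 lower, beside 2439 higher and 2116 lower of 11086 genes.

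Of 13 other restraints on the pathway 11 were tested, SPRY1 and DUSP9 being listed at 0 or 0.02 FPKM in the untreated groups. In oeWDR76 minus siNS cells 3 were higher and 5 lower, where 73.6% of all genes were called. The lower ones included NF1 and RASA1, proteins that switch RAS off, at -1.08 (adjusted p = 1.39e-10; -0.58 after the GC correction) and -1.07 (adjusted p = 1.01e-08). In siDCAF8 minus siNS cells (61% of all genes called) 4 were higher and 1 lower, with DUSP7, an ERK phosphatase, at 0.59 (adjusted p = 1.09e-06). Co-depleted minus siNS cells (66.8% of all genes called) had 3 higher and 3 lower. With median-ratio scaling the list had 1 higher and 4 lower, beside 3638 higher and 3872 lower of 11260 genes. In siDCAF8 cells erastin left 2 higher and 8 lower (18.3% and 22.5% of all genes). After the GC correction it left 0 higher and 4 lower, beside 1942 higher and 1922 lower of 11086 genes.

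Of 18 other transcripts known to follow ERK, 14 were tested. With erastin against without it, siNS cells had 6 higher and 3 lower (15.1% and 22.4% of all genes), with a list median of -0.14. The siDCAF8 cells also had 6 higher and 3 lower (18.3% and 22.5%), with a median of 0.08. Erastin left 4 higher and 2 lower in siDCAF8+siLSH cells (10.6% and 9.54%), and 2 higher and 0 lower in oeWDR76 cells (0.471% and 0.977%). In co-depleted minus siNS cells 0 were higher and 11 lower, where 35.9% of all genes were higher and 30.9% lower, with a list median of -0.55 beside 0.03 over all genes. In siDCAF8 minus siNS cells 1 was higher and 9 lower (31% and 29.9% of all genes), with a median of -0.46. In oeWDR76 minus siNS cells 3 were higher and 8 lower (41.6% and 32% of all genes), with a median of -0.31. FOSL1, an AP-1 factor, averaged 303 ± 7.93 FPKM in oeWDR76 and 82.2 ± 1.65 FPKM in siNS cells (SD, n = 2 each; log2 difference 1.87, adjusted p = 3.17e-14).

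The phosphatases of the stress kinases p38 and JNK, of which 3 of 4 were tested, differed in sign from one another. DUSP1, known to be induced by growth factors and stress, averaged 5.54 ± 0.318 FPKM in oeWDR76, 12.9 ± 2.25 in co-depleted, 5.91 ± 0.863 in siDCAF8 and 30.2 ± 1.9 in siNS cells (SD, n = 2 each). Its differences from siNS were -2.25, -1.18 and -2.18 (adjusted p at most 1.73e-07), and co-depleted cells stood above siDCAF8 cells by 1.002 (adjusted p = 4.8e-06). DUSP10 was higher than in siNS by 1.02, 1.16 and 0.97 in the same 3 genotypes (adjusted p at most 5.43e-08). Among the phosphatase genes of the members and this list, DUSP4, DUSP5 and DUSP1 were lower than in siNS in the other 3 genotypes, with and without erastin, and DUSP10 was higher.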

How the data were processed

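Per the labels' protocols, Trizol RNA from HT-1080 cells went through Smart-seq v4 amplification and a NEBNext Ultra DNA kit before BGISEQ500 sequencing. The deposited table gives FPKM per gene to 2 decimals. According to the submitters' processing notes the authors used StringTie and the GRCh38 build, with aligner, annotation and versions not given in the sources used here. Of 24107 entries in all 6555 are empty, and 28 symbols turned into dates were restored. It gives no counts, so depth and counting error are unknown. Smart-seq amplification and unequal GC recovery can move FPKM between libraries.

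The scale was log2(FPKM + 1), and 11260 genes averaging 1 FPKM or more across all 16 libraries entered limma 3.58.1 in R 4.3.3 (8 group means, mean-variance trend; 8 residual, 8.57 prior degrees of freedom). Tests of 16 contrasts were two-sided, adjusted by Benjamini-Hochberg within each over all genes, and called at adjusted p under 0.05. Groups came from the sample titles, and erastin treatment was read from the group names. The model was tested on simulated data. Python 3.11.15 with pandas 2.3.3, numpy 2.4.6 and matplotlib 3.10.9 made the tables and plots. The alternatives were another pseudocount (0.1), no filter and a stricter one (5 FPKM), median-ratio scaling, quantile normalization, a correction for transcript GC content and length, a fit of only the groups compared, a replicate block, and leaving out each library. The GC correction removed, in each library, a quadratic trend of log2(FPKM + 1) on transcript GC content and log2 length over the 11086 genes with known GC content.

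All 10 members are named whether or not called; of the pathway lists up to 3 called genes with the lowest adjusted p could be named in each comparison, and SPRY1 and DUSP9 were named after their values were seen. The gene most like each member was named by Pearson's r over the 8 group means. Members, lists and tests were chosen with earlier results of these data known. Some genes named by these rules are not reported here.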

Additional observations from a re-analysis of the deposited data

Results flagged for a closer look

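Erastin responses that differed between genotypes by a test of the difference itself (limma, 36 differences over the 9 tested members, log2 of FPKM + 1) were found for 6 members. Against siNS, 3 of 9 were called for siDCAF8, 3 for oeWDR76 and 2 for siDCAF8+siLSH, beside 20.8%, 14.1% and 24.8% of all genes. For siDCAF8+siLSH minus siDCAF8, 2 were called, beside 23.5% of all genes. These numbers of calls say little about the members. Against the siNS response, PHLDA1 was higher by 0.46 in oeWDR76, 0.54 in siDCAF8+siLSH and 0.32 in siDCAF8 cells. ETV5 was higher than in siNS by 0.69 in siDCAF8+siLSH and 0.52 in siDCAF8 cells. In oeWDR76 cells the SPRED1 response was higher by 0.37, and the DUSP5 response was -0.46 from that of siNS. NRAS differed by 0.34 in siDCAF8 from siNS and by -0.33 in siDCAF8+siLSH from siDCAF8 cells. DUSP4 differed by 0.42 in siDCAF8+siLSH from siDCAF8 cells. After the GC correction the 2 NRAS values were 0.18 and -0.10 and the DUSP4 value 0.27, none of them called and none using an oeWDR76 library, and the other 7 differences kept their direction and call. With no filter on low values the DUSP5 and siDCAF8 ETV5 calls were lost (adjusted p = 0.128 and 0.0525). Leaving out 1 library brought DUSP5 to as little as -0.31, SPRED1 to 0.31, siDCAF8 PHLDA1 to 0.25 and siDCAF8 ETV5 to 0.37, with calls lost as given above.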

How the results depend on the processing

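Of 144 differences over the 9 tested members, 79 were called and 51 of these held in all settings tried. The share of all 11260 genes called ran from 1.45% for erastin in oeWDR76 cells to 76.2% for oeWDR76/Erastin against siNS/Erastin cells. How many all-gene calls held in all settings is not given, so these counts say little about the members. Among member differences called as deposited or in the other setting, 1 changed sign. SPRED1 in oeWDR76/Erastin minus siNS/Erastin cells was 0.0108 after the GC correction (adjusted p = 0.882), against -0.44. Some differences called in neither also changed sign. Members called under erastin in siDCAF8+siLSH cells numbered 1, and 2 with the stricter filter, 2 with median-ratio scaling, 3 with quantile normalization and 2 with the replicate block. With no filter on low values 14 member calls were lost, and the number called went to 5 (from 8) for siDCAF8+siLSH/Erastin minus siNS/Erastin, 1 (from 3) for the response of siDCAF8 minus siNS and 1 (from 2) for that of siDCAF8+siLSH minus siDCAF8. The last was also 1 after the GC correction and 1 with only the groups compared, and siDCAF8+siLSH minus siDCAF8 without erastin had 2 after the GC correction (from 4). The cause was not tested.

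Leaving out each library in turn gave 4 to 7 members for erastin in siNS, 3 to 7 in siDCAF8, 0 in oeWDR76 and 1 to 2 in siDCAF8+siLSH. Against siNS it gave 6 to 8 for siDCAF8 (6 to 7 with erastin), 8 to 9 for oeWDR76 (8 with erastin) and 7 to 9 for siDCAF8+siLSH (4 to 8 with erastin). Against siDCAF8, co-depletion had 1 to 5 (4 to 5 with erastin). Differences of responses had 1 to 4 for siDCAF8 minus siNS, 1 to 3 for oeWDR76 minus siNS, 2 to 4 for siDCAF8+siLSH minus siNS and 0 to 4 for siDCAF8+siLSH minus siDCAF8.

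Genes called over all settings numbered 2796 to 4555 (4223 as reported) for erastin in siNS, 3021 to 4760 (4600) in siDCAF8, 27 to 270 (163) in oeWDR76 and 1247 to 2443 (2270) in siDCAF8+siLSH. For the 4 differences of responses, in the order above, they were 1315 to 2537 (2341), 906 to 1974 (1593), 1761 to 2882 (2790) and 236 to 3003 (2642). Against siNS they were 5643 to 7196 (6863) for siDCAF8, and 5928 to 7590 (7293) with erastin. For oeWDR76 they were 6650 to 9334 (8285), and 6853 to 9568 (8576) with erastin. For siDCAF8+siLSH they were 6121 to 8073 (7519), and 6032 to 7913 (7434) with erastin. Against siDCAF8, co-depletion had 3726 to 5460 (5422), and 4301 to 5701 (5600) with erastin. The numbers as reported are of 11260 tested genes.

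The labels share replicate numbers but do not say what they mark. Same-numbered libraries' deviations from their group means correlated at -0.208 to 0.389, over 0.1 in 7 of 28 pairs of groups, so the numbers were not taken to pair the libraries. With the number as a replicate block SPRY2 was called for erastin in siDCAF8+siLSH cells (-0.22, adjusted p = 0.0332), and no other member's call changed. Depth is unknown, so how far it limits DUSP6 cannot be given.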
